A study of Mus musculus with 6 samples.

Results

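Retinoic acid is the active form of vitamin A. Cells make it from retinol in a pair of oxidations: retinol dehydrogenases such as RDH10 give retinal, and retinal dehydrogenases of the ALDH1A family turn retinal into retinoic acid. CRABP2 carries the acid to the nucleus, where the receptors RAR alpha, beta and gamma, paired with RXR, bind response elements in target genes, and cytochromes P450 of the CYP26 family hydroxylate it for breakdown. Cyp26a1 and Rarb are textbook targets of the receptors, so their transcripts are widely used as readouts of the pathway, and the liver is the main store of vitamin A, held largely in its stellate cells.

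The transcripts described are the 10 genes Rdh10, Aldh1a1, Aldh1a2, Aldh1a3, Crabp2, Rara, Rarb, Rarg, Cyp26a1 and Cyp26b1, out of 49585 genes in the count table, and all 10 were found there. They were chosen by name as one pathway, from earlier results of these same libraries that included the difference of Cyp26b1 between the groups. The differences given for them are therefore descriptions, and the adjusted p-values beside them, from a fit across all genes, are no independent evidence for the group. The libraries are polyA RNA-seq of AML12 cells taken 24 h after transfection with a construct carrying the Zac1 open reading frame (3 libraries, numbered 4, 5 and 6) or the EGFP open reading frame (3 libraries, numbered 1, 2 and 3). Zac1, the product of the imprinted gene Plagl1, is a transcription factor with zinc fingers, EGFP is a fluorescent protein that serves as the control, and the series title places the work in juvenile fatty liver disease. AML12 is a single immortalised mouse hepatocyte line, established from a mouse with a transforming growth factor alpha transgene, so both groups share that background. The labels give neither the promoter of the constructs, nor the share of cells that took them up, nor separate cultures behind the libraries, so the p-values cover no more than the spread among these 6 libraries, and that may be technical. In such bulk RNA a change in the number of cells that express a gene and a change in RNA per cell cannot be told apart.

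Total counts ran from 14801240 to 18302538 reads per library. Plagl1 had 106033, 135108 and 148382 reads in Zac1 libraries 4, 5 and 6, against 39, 79 and 67 reads in EGFP libraries 1, 2 and 3, so the libraries match their labels. These reads do not tell the construct from the gene of the cells themselves. Of 12 hepatocyte markers, 6 reached the mean count of 10 that was asked of tested genes, among them Hnf4a with 206 ± 4.005 CPM (read counts scaled by TMM to the library size) in Zac1 and 201 ± 9.91 CPM in EGFP libraries (SD, n = 3 each), while Apoa2 and Cyp2e1 had 0 reads. Of these markers 1, Ttr, was called lower in Zac1 libraries (described with the retinoid carriers), and the summed level of the 12 was 1432 to 1708 CPM in Zac1 and 1577 to 1827 CPM in EGFP libraries. Of 6 cholangiocyte markers, 5 reached it, Krt19 and Sox9 included. On the second principal component, with 15.5% of the variance, Zac1 4 (11.6) and EGFP 1 (18.7) stood apart from the other 4 libraries (-10.7 to -3.51).

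The start regions of Cyp26a1, Cyp26b1 and Rarb are shown because the results turn on the hydroxylase genes and because Cyp26a1 and Rarb held a known kind of receptor element. Windows of 250 bases before the RefSeq start were at hand for 7 of the 10 genes (Cyp26a1, Cyp26b1, Rara, Rarb, Rarg, Aldh1a1 and Aldh1a2; RefSeq, GRCm38.p6). They were searched on both strands for the DR5 and the DR2 retinoic acid response elements, direct repeats of the receptor half-site with a spacer of 5 or 2 bases, and for GGGGCCCC, the core of the site known for Zac1. A DR5 element was found in the windows of Cyp26a1 and Rarb, 2 of 7, and in 24 of all 27025 windows (0.0888%). A DR2 element was in 0 of 7, against 0.178% of all windows, and the Zac1 core in 0 of 7, against 0.881%. These are matches of letters, not sites shown to be bound, and a window without one says only that these letters are not in it. The first and second lines below give the windows of both hydroxylase genes, without the bases that a GENCODE exon covers, Cyp26a1 at chr19:37697558-37697797 on the plus strand and Cyp26b1 at chr6:84593909-84594060 on the minus strand. The third gives the match in the Rarb window alone, at chr14:16575513-16575529 on the minus strand. That place lies inside the Rarb gene of GENCODE (16430839 to 16819156), so the RefSeq start used is not its outermost start. Capitals mark the DR5 match, which lies 32 to 16 bases before the RefSeq start in Cyp26a1, in the orientation opposite to the gene, and 53 to 37 bases before it in Rarb.
Cyp26a1: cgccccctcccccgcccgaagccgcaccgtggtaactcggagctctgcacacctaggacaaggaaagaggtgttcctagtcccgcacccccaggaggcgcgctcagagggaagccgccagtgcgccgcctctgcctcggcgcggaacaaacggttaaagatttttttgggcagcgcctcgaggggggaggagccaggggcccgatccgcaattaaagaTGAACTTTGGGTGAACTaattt
Cyp26b1: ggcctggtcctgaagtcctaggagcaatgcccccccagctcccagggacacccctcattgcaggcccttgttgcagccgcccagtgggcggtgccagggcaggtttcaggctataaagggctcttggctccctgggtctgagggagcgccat
Rarb: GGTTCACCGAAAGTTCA

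Per length of transcript, 1 gene stood far above the others. Aldh1a1 was at 116 ± 14.5 RPKM in Zac1 and 134 ± 21.9 RPKM in EGFP libraries, where RPKM divides the TMM-scaled CPM by the union of a gene's GENCODE exons in kilobases (SD, n = 3 each, as in all values below). Rara, Rdh10 and Rarg followed in that order in both groups, at 12.2 ± 0.902, 10.7 ± 0.524 and 7.57 ± 0.337 RPKM in Zac1 libraries. In EGFP libraries they stood at 10.6 ± 0.710, 9.40 ± 0.283 and 6.44 ± 0.815 RPKM. The ranges of neighbours in that upper part of the order did not overlap within either group. All other members were at or below 1.28 RPKM in every library. In Zac1 libraries the order went on with Cyp26b1 (1.13 ± 0.145 RPKM) and Cyp26a1 (0.930 ± 0.220 RPKM), whose ranges overlapped, then Rarb (0.518 ± 0.0725 RPKM) and Crabp2 (0.428 ± 0.284 RPKM), whose ranges overlapped too, and Aldh1a3 (0.177 ± 0.0252 RPKM). In EGFP libraries Rarb (0.539 ± 0.138 RPKM) came before Cyp26b1 (0.334 ± 0.101 RPKM), with overlapping ranges, followed by Cyp26a1 (0.113 ± 0.0396 RPKM), which overlapped neither neighbour, and then by Crabp2 and Aldh1a3, both with a library at 0. Aldh1a2 was last in both groups with 0 reads.

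**Figure D1:**
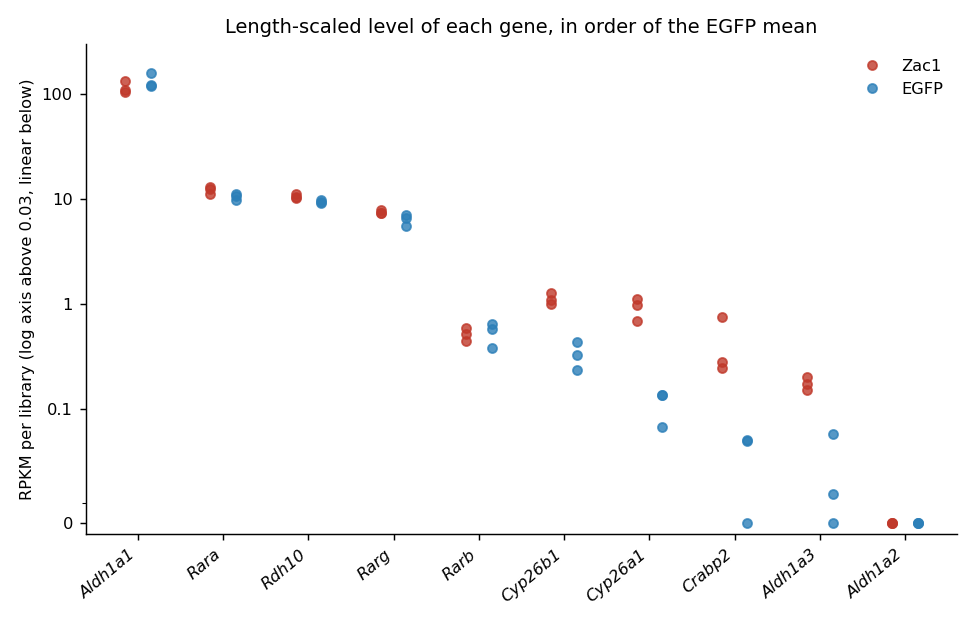
Level of each gene per length of exon in RPKM, 1 point per library, Zac1 left of EGFP for each gene; the axis is logarithmic except for a linear stretch next to 0. Aldh1a1 lies at 106 RPKM or more in all 6 libraries, Rara, Rdh10 and Rarg lie between 5.53 and 12.9 RPKM, and the rest lie at or below 1.28 RPKM.

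Among the 7 members that could be tested, the genes of breakdown had the largest log2 fold changes; Aldh1a3 and Crabp2, too low to be tested, are described further on. Both hydroxylase genes rose in Zac1 libraries, Cyp26a1 8.06-fold and Cyp26b1 3.36-fold, and they were the 2 of 7 tested members that the fit across all genes called. By edgeR 0 were called lower, as by DESeq2, limma and voom, and 1 was lower at an unadjusted p under 0.05. Of all 12130 genes tested, 3.12% were called higher and 0.668% lower. The call for Cyp26b1 was among the results that the list was drawn up from, so nothing is read from this count.

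Cyp26a1 encodes the hydroxylase that retinoic acid itself induces most strongly in many tissues, liver included (ENSMUSG00000024987; GRCm38 chromosome 19, 37697798 to 37701536, plus strand). It had 22, 33 and 41 reads in Zac1 4, 5 and 6, against 2, 4 and 4 reads in EGFP 1, 2 and 3. These counts correspond to 1.37, 1.94 and 2.23 CPM in Zac1 libraries and to 0.133, 0.268 and 0.270 CPM in EGFP libraries. Every Zac1 library was above every EGFP library, and the lowest of each group were Zac1 4 and EGFP 1. The mean was 1.84 ± 0.437 CPM in Zac1 and 0.224 ± 0.0786 CPM in EGFP libraries, and edgeR put the log2 fold change at 3.01 (SE 0.41, adjusted p = 0.000728). The ratio of summed counts was 8.34, with an exact 95% interval of 4.34 to 17.9 that covers counting error only. Cyp26a1 reached the count minimum only through its reads in Zac1 libraries.

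Cyp26b1 encodes the related hydroxylase that clears retinoic acid in many embryonic tissues (ENSMUSG00000063415; GRCm38 chromosome 6, 84571414 to 84593908, minus strand). It had 95, 117 and 98 reads in the Zac1 libraries, against 19, 35 and 26 reads in the EGFP libraries. The levels were 5.91, 6.87 and 5.33 CPM in Zac1 and 1.26, 2.35 and 1.75 CPM in EGFP libraries, again with no overlap. The means were 6.03 ± 0.778 and 1.79 ± 0.543 CPM in Zac1 and EGFP libraries, and the log2 fold change came to 1.75 (SE 0.22, adjusted p = 0.000346).

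Neither hydroxylase lost its call when any 1 library was left out. The log2 fold change of Cyp26a1 then ran from 2.75 to 3.18 (adjusted p at most 0.00719) and that of Cyp26b1 from 1.55 to 1.99 (at most 0.00517). Without Zac1 4 and EGFP 1 together, the libraries apart on the second component, the log2 fold changes were 2.92 and 1.56. In that order the 2 genes had a GC content of 53.8% and 56.7% in their longest transcript, and offsets for GC gave 2.97 and 1.69. The summed level of 10 hepatic stellate cell and fibroblast markers also differed, at 0.560 to 0.880 CPM in Zac1 and 0.0671 to 0.333 CPM in EGFP libraries. None of them reached a mean count of 10, and Lrat, Hgf, Dcn and Lum had 0 reads. The part of these markers in the result was not tested. Low markers of other cell types differed too, in both directions. Csf1r had 30 reads in all Zac1 and 0 in all EGFP libraries, and Pecam1 had 38 and 17. Lyz2 had 0 and 6, and Ptprc had 25 and 31. With no filter on low counts, 731 of all genes were called higher and 248 lower. Nothing particular to stellate cells is therefore read from their summed level.

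The make-up of the hydroxylase pair, which follows from the levels above and is no further finding, also differed. Of the summed RPKM of Cyp26a1 and Cyp26b1, Cyp26a1 took 38.5%, 43.2% and 53.0% in Zac1 4, 5 and 6, against 22.1%, 23.6% and 29.3% in EGFP 1, 2 and 3. All 3 Zac1 shares were above all 3 EGFP shares, so the level of Cyp26a1 was closer to that of Cyp26b1 in Zac1 libraries. The EGFP shares rest on only 2, 4 and 4 reads of Cyp26a1 and are imprecise. The third enzyme of the family, Cyp26c1, had 4 reads in all Zac1 libraries and 3 in all EGFP libraries.

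**Figure D2:**
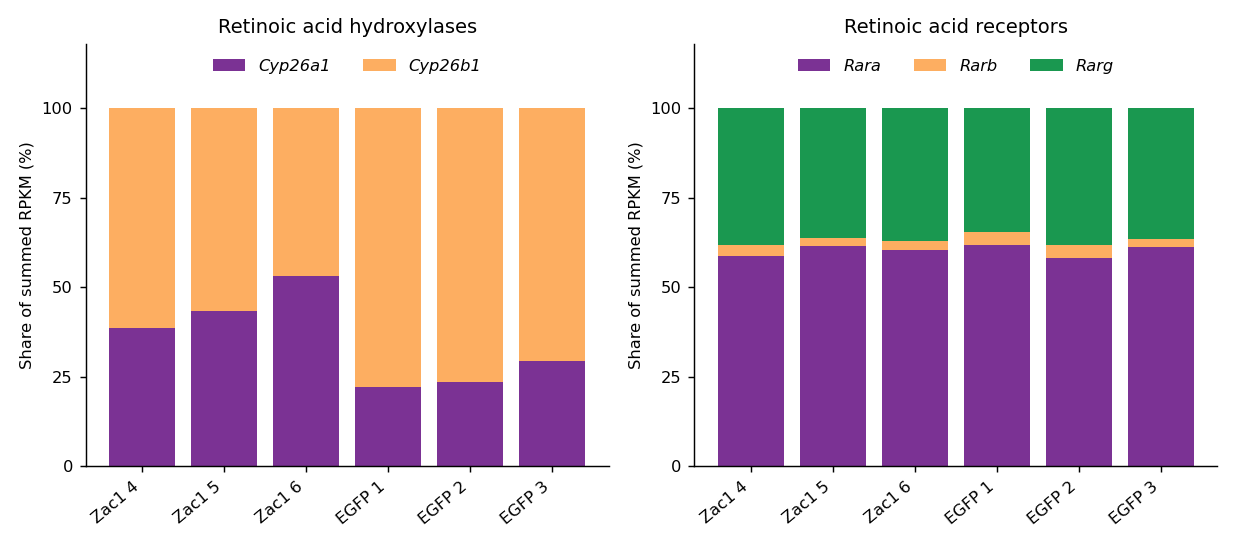
Share in percent of the summed RPKM within each family, 1 bar per library, with Zac1 libraries left of EGFP libraries. Cyp26a1 takes 38.5% to 53.0% of the hydroxylase sum in Zac1 and 22.1% to 29.3% in EGFP libraries, while Rara takes 58.2% to 61.6% of the receptor sum in all 6 libraries.

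The receptor genes were present in near constant proportions, and none of the 3 was called. Rara, the receptor found in most tissues, took 58.6% to 61.5% of the summed receptor RPKM in Zac1 and 58.2% to 61.6% in EGFP libraries. Rarg, which is known from skin and cartilage, took 36.3% to 38.4% in Zac1 and 34.7% to 38.3% in EGFP libraries. Rarb took 2.18% to 3.09% in Zac1 and 2.11% to 3.65% in EGFP libraries.

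Rara had 49.0, 54.8 and 56.5 CPM in Zac1 4, 5 and 6, against 42.9, 47.2 and 48.9 CPM in EGFP 1, 2 and 3. The lowest Zac1 library lay just above the highest EGFP library. The log2 fold change was 0.21 (SE 0.07, adjusted p = 0.171). It passed without Zac1 4 (0.031), without Zac1 4 and EGFP 1 together (0.0422) and with voom quality weights (0.0353).

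Rarg showed a difference of like size. Its levels were 31.3, 31.6 and 33.9 CPM in Zac1 libraries, against 23.6, 30.3 and 28.5 CPM in EGFP libraries, with no overlap. The log2 fold change was 0.23 (SE 0.09, adjusted p = 0.213), and EGFP 1 was the low library.

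Rarb, the receptor gene that is itself a classic target of retinoic acid, had 50, 40 and 50 reads in Zac1 libraries, against 46, 51 and 30 reads in EGFP libraries. The groups overlapped at 2.73 ± 0.382 CPM in Zac1 and 2.84 ± 0.725 CPM in EGFP libraries. The log2 fold change of -0.06 (SE 0.23, adjusted p = 0.934) changed sign with the library left out, between -0.25 and 0.10. Of the 2 members with a DR5 match before a RefSeq start, Cyp26a1 was called and Rarb was not. The Rarb start used lies inside the gene as counted, so its reads may include RNA from other starts. Cyp26a1 was tested only through its reads in Zac1 libraries, so nothing is read from this pair. Rarb shares 1793 exonic bases with Top2b on the opposite strand, and whether reads were counted by strand is not stated, so its reads are uncertain.

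The synthesis genes showed small or no differences where they could be tested. Rdh10, which encodes the retinol dehydrogenase needed for retinoic acid in the mouse embryo, had 44.0, 46.7 and 42.3 CPM in Zac1 4, 5 and 6. It had 40.4, 38.9 and 38.1 CPM in EGFP 1, 2 and 3. All Zac1 libraries were higher, by 0.18 on the log2 scale (SE 0.07, adjusted p = 0.196), and the gene passed with voom quality weights alone of 18 alternatives (0.0276).

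Aldh1a1, the cytosolic retinal dehydrogenase of adult liver, was counted 10507, 9200 and 9599 times in Zac1 libraries, against 11850, 9051 and 8817 times in EGFP libraries. The levels were 654, 540 and 522 CPM in Zac1 and 789, 607 and 595 CPM in EGFP libraries. The groups overlapped, and Zac1 4 and EGFP 1 were the highest of their groups. The log2 fold change was -0.22 (SE 0.10, adjusted p = 0.307), and the 1-library omissions gave -0.32 to -0.07. Aldh1a1 passed as lower without Zac1 4 (0.0208), without Zac1 4 and EGFP 1 together (log2 fold change -0.18, adjusted p = 0.00444) and with no filter on low counts (0.00105). The prior degrees of freedom, the weight that a fit gives to the variance shared over genes, were 79.3 without both libraries and infinite with no filter, against 10.02 in the comparison itself.

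The other enzymes of the family were scarce. Aldh1a3 had 13, 16 and 13 reads in Zac1 4, 5 and 6, against 0, 1 and 4 reads in EGFP 1, 2 and 3. Its mean count was under the minimum of 10, so it was not tested; the ratio of summed counts was 7.30 (exact 95% interval 2.89 to 23.6), and 24.4 (4.15 to 987) without EGFP 3 and 4.85 without EGFP 1. Aldh1a2, the enzyme of the embryonic trunk, had 0 reads in all 6 libraries, which allows up to 0.0582 CPM over the Zac1 libraries and 0.0670 CPM over the EGFP libraries (3 counts per group). Aldh1a1 thus made up at least 99.8% of the summed ALDH1A RPKM in every library.

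Crabp2, the carrier that delivers retinoic acid to its receptor, was also too low to be tested. It had 6, 17 and 6 reads in Zac1 libraries, against 1, 0 and 1 reads in EGFP libraries, and each Zac1 library was above each EGFP library. The ratio of summed counts was 12.6 (exact 95% interval 3.19 to 109), and 7.79 (1.73 to 71.7) without Zac1 5, which held 17 of the 29 Zac1 reads. In the fit with no filter on low counts, Aldh1a3 had a log2 fold change of 2.79 (adjusted p = 0.00114) and Crabp2 one of 3.45 (adjusted p = 0.0037). Those fitted changes depend on the prior count, and that fit shared its variance wholly over genes.

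**Figure D3:**
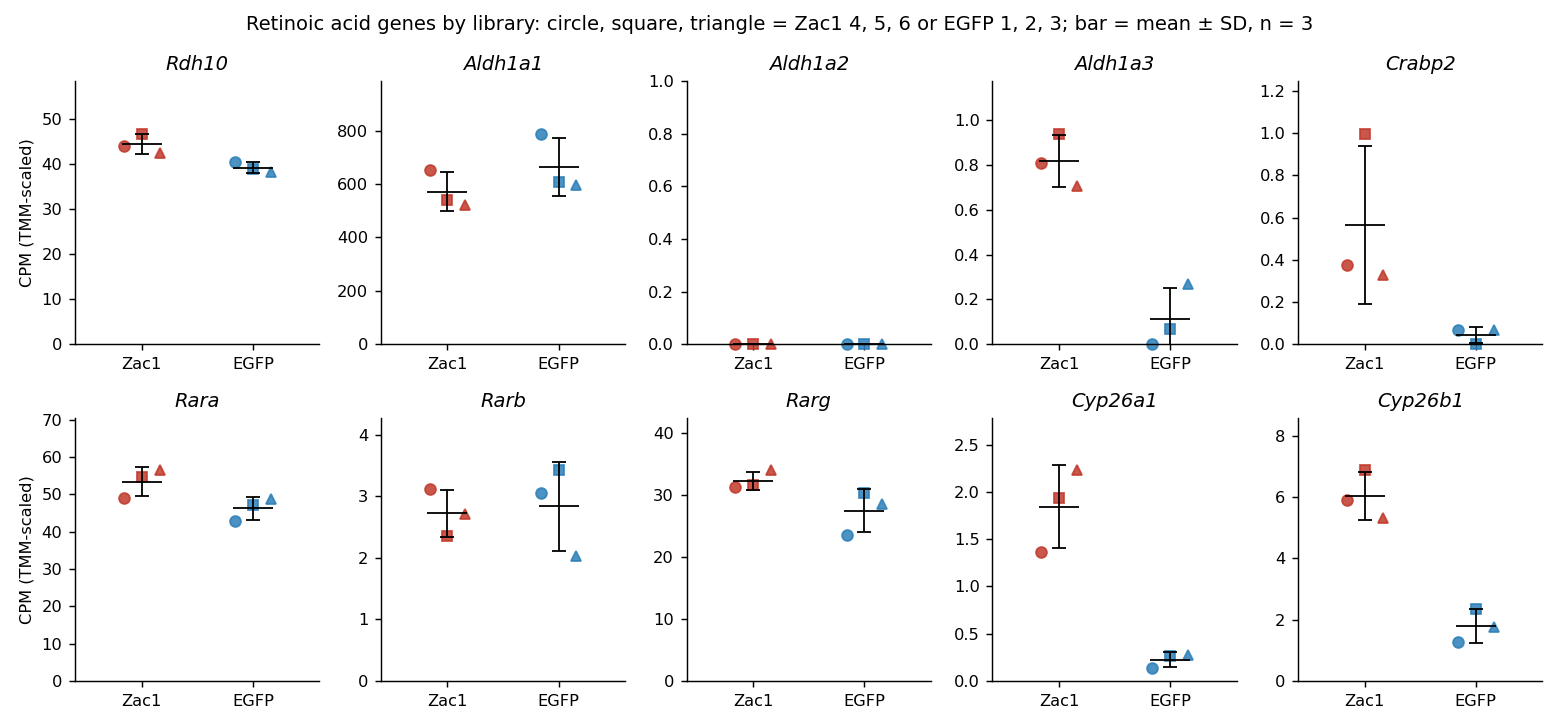
CPM of each of the 10 genes by library, Zac1 left of EGFP, with the mean and SD (n = 3) as bars; each panel has its own axis from 0. Cyp26a1, Cyp26b1, Aldh1a3 and Crabp2 show Zac1 points well above EGFP points, Rdh10, Rara and Rarg show a narrow gap, Rarb and Aldh1a1 overlap, and Aldh1a2 is at 0.

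Among the 7 tested members, 5 had all Zac1 libraries above all EGFP libraries and 0 had them all below, where 11.9% and 8.75% of all genes tested did so. The median log2 fold change of the 7 was 0.21, against -0.0016 for all genes tested. As the list was drawn up with this contrast known, and Cyp26a1 had to be high in Zac1 libraries to be tested, these values describe the list only.

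**Figure D4:**
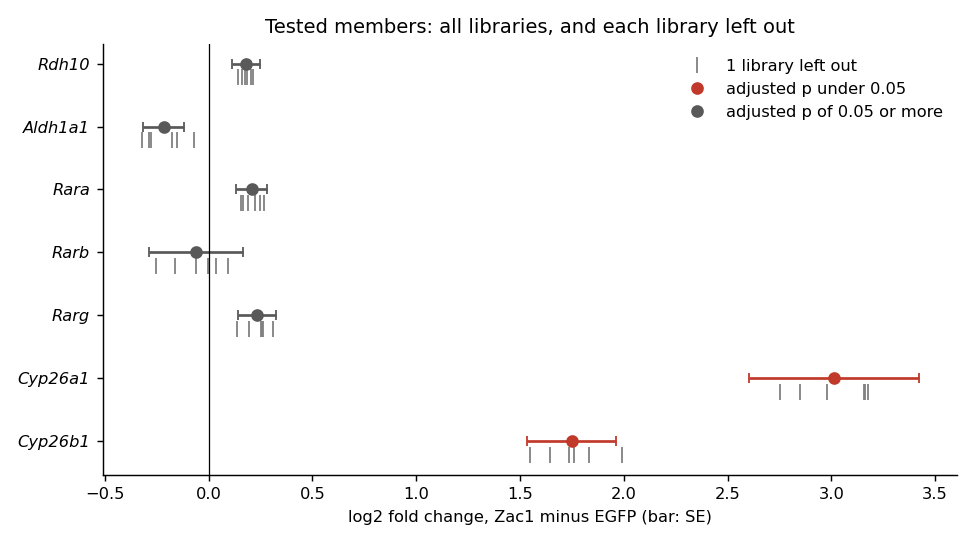
Log2 fold change, Zac1 minus EGFP, of the 7 tested genes with its SE (points) and with each library left out in turn (ticks). Cyp26a1 at 3.01 and Cyp26b1 at 1.75 lie apart from the other 5 genes, which lie between -0.22 and 0.23.

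The wider retinoid machinery is given by list. Of 82 further genes on 5 lists (receptor partners and cofactors, transport and storage, oxidoreductases, other breakdown enzymes and retinoic acid responsive genes), 47 were tested; the other 35 did not reach the count minimum, 18 of them with 0 reads. The fit called 1 of the 47 higher, where 3.12% of all genes tested were called higher, and 3 lower, where 0.668% of all genes tested were called lower. Their median log2 fold change was 0.03. The lists, like the members, were drawn up with earlier results of these data known. These counts, and those by list below, therefore describe the lists only.

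Among 11 receptor partners and cofactors tested, 1 was called higher and 0 lower (median log2 fold change -0.01), where 3.12% and 0.668% of all genes tested were. The corepressor Ncor1 (-0.02, adjusted p = 0.875) and the coactivator Ep300 (-0.01, adjusted p = 0.966) had log2 fold changes near 0. The RXR partners, named outside the rule for naming genes, were Rxra at 56.0 ± 3.23 CPM in Zac1 and 53.3 ± 2.10 CPM in EGFP libraries and Rxrb at 39.3 ± 5.10 CPM in Zac1 and 40.5 ± 2.81 CPM in EGFP libraries. Neither was called (adjusted p = 0.642 and 0.872), and Rxrg had 0 reads.

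Among 9 genes of retinoid transport and storage tested, Ttr fell and 0 rose (median 0.06), against 0.668% lower and 3.12% higher of all genes tested. Ttr, also on the list of hepatocyte markers, encodes transthyretin, which holds retinol-binding protein in the plasma. It had 43.1, 37.7 and 46.5 CPM in Zac1 libraries, against 64.2, 68.8 and 69.0 CPM in EGFP libraries, and it fell by 0.67 on the log2 scale (SE 0.08, adjusted p = 0.000211). Ttr passed under all 18 alternatives. Rbp4, the plasma retinol carrier itself, had 127, 154 and 163 CPM in Zac1 libraries, against 115, 147 and 145 CPM in EGFP libraries (log2 fold change 0.13, adjusted p = 0.558), and the lipoprotein receptor Scarb1 stood at 0.08 (adjusted p = 0.601). Lrat, which esterifies retinol for storage, had 0 reads.

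Of 12 retinol and retinal oxidoreductases tested, 2 fell and 0 rose (median -0.09), against 0.668% lower and 3.12% higher of all genes tested. By sign alone, 5 of the 12 had a log2 fold change above 0 and 7 below. Adh7, an alcohol dehydrogenase active on retinol, had 1.99, 1.53 and 1.36 CPM in Zac1 libraries, against 2.86, 3.09 and 3.37 CPM in EGFP libraries. Its log2 fold change was -0.94 (SE 0.23, adjusted p = 0.0309). Aldh1a7, a rodent relative of Aldh1a1, had 10.6, 7.34 and 9.84 CPM in Zac1 libraries, against 14.04, 13.7 and 12.8 CPM in EGFP libraries (log2 fold change -0.54, SE 0.13, adjusted p = 0.0342). Of the 50-base stretches of the Aldh1a1 transcript, 6.54% recur in Aldh1a7, so the division of reads between these genes is uncertain. Neither call held with every library left out in turn. That of Adh7 went with DESeq2 (0.0548) and on leaving out EGFP 2 (0.0795), EGFP 3 (0.137), Zac1 5 (0.143) or Zac1 6 (0.155), and that of Aldh1a7 without any library but Zac1 4 (up to 0.183) and with a mean count of at least 50 (0.0566). The abundant Adh5 stood at 0.02 (adjusted p = 0.892) and Dhrs3, a retinal reductase that retinoic acid induces, at -0.26 (adjusted p = 0.219).

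Outside the CYP26 family, neither tested breakdown gene was called by edgeR, DESeq2, limma or voom, and 0 had an unadjusted p under 0.05; the P450 reductase Por stood at 0.05 (adjusted p = 0.648) and Cyp2s1 at 0.15 (adjusted p = 0.749). Of all genes tested, 3.12% were called higher and 0.668% lower. Near those shares, 0 of 17 retinoic acid responsive genes tested were called in either direction by edgeR (median log2 fold change 0.03). At an unadjusted p under 0.05, 2 were higher and 1 lower; DESeq2 and limma called 0, and voom called 1 higher and 1 lower. The 17 tested genes included Tgm2, tissue transglutaminase, with 547 ± 50.3 CPM in Zac1 and 541 ± 55.6 CPM in EGFP libraries (0.02, adjusted p = 0.951).

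**Figure D5:**
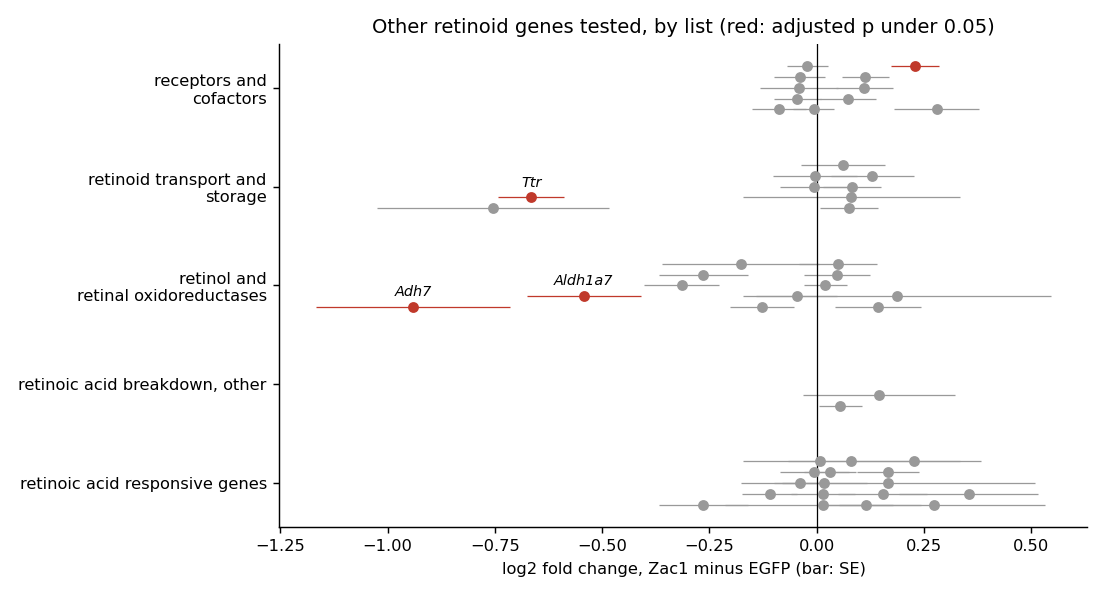
Log2 fold change, Zac1 minus EGFP, with its SE for the 47 tested genes of the 5 wider retinoid lists; genes on more than one list are drawn in each, and red points passed the test. The red points on the lower side are Ttr at -0.67, Aldh1a7 at -0.54 and Adh7 at -0.94, and 1 red point lies on the higher side.

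The genes whose profile over the 6 libraries was most like that of Cyp26b1 were Dennd2a, Kifc2, Efna2, Slc12a5 and Map7. Likeness was the root mean square difference of mean-centred log2 CPM, which was 0.214, 0.217, 0.218, 0.222 and 0.234 in that order. Efna2, an ephrin ligand, had 4.96 ± 0.245 CPM in Zac1 and 1.59 ± 0.176 CPM in EGFP libraries. Slc12a5, a potassium chloride cotransporter of neurons, had 1.57 ± 0.0627 CPM in Zac1 and 0.604 ± 0.243 CPM in EGFP libraries. Like Cyp26b1, all 5 had their lowest EGFP value in EGFP 1. They are near to Cyp26b1 by the construction of the measure, so no test is given.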

How the data were processed

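PolyA RNA of 6 libraries was measured, 3 of AML12 cells transfected with Zac1 and 3 with EGFP. The deposited values are 1 table of counts of reads by gene, with 1 column for each library. FastQC, STAR, HTSeq and DESeq2 were used, per the submitters' processing notes; for versions, build, annotation and strand setting: not given in the sources used here. The deposited table is called normalized, but its values behave as unscaled counts: they are whole and their totals differ. Symbols came from GENCODE M21, which matched 49326 of 49585 IDs, and coordinates from the same release (GRCm38).

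The 12130 genes whose mean count reached 10 were compared between Zac1 and EGFP (Zac1 minus EGFP) with TMM scaling and the two-sided quasi-likelihood test of edgeR 4.0.16 (R 4.3.3, prior count 0.125), Benjamini-Hochberg adjustment over all of them and a threshold of 0.05. The SE is the log2 fold change divided by the square root of F. Replicate pairs differed by more than sampling noise (chi-square per degree of freedom 2.31 to 8.98). The fit was tested on simulated data. Alternatives were DESeq2 1.42.0, limma 3.58.1 on log2(CPM + 1), voom quality weights, other scalings, filters, prior count and variance, GC offsets, and libraries left out.

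Named are all 10 members and Plagl1, wider genes past the test, the 2 with the highest mean count per list, and the 5 genes most like Cyp26b1; others are said to fall outside this rule, and some genes that it names are not reported here. Members and lists were chosen with earlier results of these data known. Intervals (Clopper-Pearson) and limits of 0 cover counting error only.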

Additional observations from a re-analysis of the deposited data

How the results depend on the processing

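Cyp26a1 and Cyp26b1 kept their direction and their call under every alternative run, 17 and 18 in number (Cyp26a1 does not reach a mean count of 50). The alternatives reuse the libraries from which the list was drawn up with the difference of Cyp26b1 known. Cyp26a1 passed the filter only through its reads in Zac1 libraries, so keeping these calls is no independent evidence. The number of members called higher was 2 in the main comparison. It was 4 with voom quality weights (Rara and Rdh10 added), 4 with no filter on low counts (Aldh1a3 and Crabp2 added) and 1 with a mean count of at least 50. It was 3 (Rara added) without EGFP 1 and Zac1 4 together, and 2 to 3 with each library left out. Members called lower numbered 1 (Aldh1a1) with no filter and without EGFP 1 and Zac1 4 together, and 0 to 1 with each library left out. Wider retinoid genes called higher, 1 in the main comparison, numbered 3 with voom weights, 3 with no filter, 0 with GC offsets and 0 to 2 with a library left out (0 without EGFP 1, EGFP 3, Zac1 5 or Zac1 6). Those called lower, 3 in the main comparison, numbered 5 with voom weights, 5 with no filter, 1 with a mean count of at least 50, 6 without EGFP 1 and Zac1 4 together and 1 to 5 with a library left out (1 without EGFP 2, EGFP 3, Zac1 5 or Zac1 6). Rarb changed sign, at -0.25 to 0.10 with a library left out, and was never called. Apart from the added or lost genes that a filter itself decides, the cause was not tested. No scaling moved the median of all tested genes by more than 0.1 on the log2 scale. No paired analysis was run, because the labels number the libraries in sequence and do not state whether libraries of the groups were paired. Depth limits Aldh1a2, Aldh1a3, Crabp2 and the EGFP level of Cyp26a1, which rests on 10 reads.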

Other observations

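Some of the 35 wider retinoid genes below the count minimum, named after their values were seen, were read mostly in Zac1 libraries. Others were not, such as Adh1 with 10 reads in all Zac1 libraries and 15 in all EGFP libraries. Low genes were not compared as a set, and with no filter on low counts 731 of all genes were called higher and 248 lower. The genes below are therefore examples only. Crabp1, the cytosolic carrier related to Crabp2, had 4, 9 and 4 reads in Zac1 4, 5 and 6 and 0 in every EGFP library. Set against 3 counts over the EGFP group, the ratio was 4.92, which leaves out the counting error of the Zac1 reads. Nr2f1, a nuclear receptor gene that retinoic acid induces, had 21, 11 and 13 reads in Zac1 libraries, against 2, 4 and 1 reads in EGFP libraries, a ratio of 5.58 (exact 95% interval 2.50 to 14.7).

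Of the 24 genes with a DR5 match in the 250 bases before their start, 10 had a read and 3 were tested, Cyp26a1, Rarb and Tnfsf13b. Tnfsf13b encodes the B-cell survival factor BAFF. It was read 3, 4 and 3 times in Zac1 libraries, against 22, 12 and 26 times in EGFP libraries, and fell by 2.74 on the log2 scale (SE 0.46, edgeR adjusted p = 0.00339). Tnfsf13b reached the count minimum only through its reads in EGFP libraries, as Cyp26a1 did only through those in Zac1 libraries, so nothing is read from the calls of these 3 genes.

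Within each group, Zac1 4 and EGFP 1 had the lowest levels of 3 abundant retinoid genes, chosen after their values were seen. Tgm2 had 491, 560 and 589 CPM in Zac1 4, 5 and 6, against 484, 595 and 544 CPM in EGFP 1, 2 and 3. Rbp4, whose values stand above, was likewise lowest in these libraries. Dhrs3 had 36.7, 38.7 and 44.1 CPM in Zac1 libraries, against 39.3, 53.3 and 51.2 CPM in EGFP libraries.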
